A study of Mus musculus with 32 samples.

Results

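The genes described here are 35 members of the amino acid stress response that the transcription factor ATF4 drives, taken by name from the 24885 gene identifiers counted in mouse bone marrow-derived macrophages. The rule goes by gene name and uses no measured value, but the set was drawn up with earlier results of these data known. All 35 were found, 33 passed the filter on low counts, and Pycr1 and Cth did not. The members comprised 7 transcription factors and feedback genes, 6 growth, redox and secreted effectors, 6 amino acid transporters, 4 enzymes of amino acid synthesis and 12 aminoacyl-tRNA synthetases of the cytosol. RNA was sequenced in 32 libraries, 4 in each of 8 groups. T2KO groups carried a Trem2 knockout and WT groups were wild-type, and the labels give C57BL/6 for both. In either genotype the cells were labelled low or normal for M-CSF, the macrophage growth factor, and had been left overnight in RPMI with LCCM at 0.5% or 10%. Reading low as 0.5% and normal as 10% is an inference, because no label joins the words to the percentages. In each genotype and medium, 1 group was given LPS, the bacterial lipopolysaccharide that triggers inflammation, at 10 ng/ml for 4 hours, and 1 was not. No label states that replicate libraries were separate mice or cultures. Each p therefore rests on the spread between the 4 libraries within groups, estimated for each gene over all 8 groups together. That spread may be technical.

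ATF4 is the main effector of the integrated stress response. When amino acids run short, or when proteins misfold in the endoplasmic reticulum, kinases phosphorylate the initiation factor eIF2, most protein synthesis slows, and the Atf4 mRNA is translated better. ATF4 then binds C/EBP-ATF response elements in genes that take up amino acids, make them and load them on tRNAs, and also induces genes that switch the response off. mTORC1, which growth factors such as M-CSF activate, raises ATF4 protein as well, so the same targets serve anabolic growth in proliferating macrophages. The libraries measured mRNA, and ATF4 protein was not measured.

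Total counts per library were 3068863 to 15585423, with a median of 5596111. Levels are CPM, counts scaled to library size with TMM factors. Trem2 itself averaged 6.01 ± 2.31 CPM in T2KO cells with LPS in low M-CSF, against 332 ± 47.4 CPM in WT cells (SD, n = 4), and 115 ± 13.9 CPM in T2KO cells without LPS, against 460.4 ± 70.1 CPM in WT cells. In normal M-CSF it averaged 5.88 ± 2.28 CPM with LPS in T2KO cells, against 226 ± 26.3 CPM in WT cells, and 36.3 ± 4.96 CPM without LPS in T2KO cells, against 305 ± 46.6 CPM in WT cells. The 10 macrophage markers summed to 5125 to 12304 CPM in every library and none was at 0 in any group, while lymphocyte markers summed to at most 1.24 CPM. In 6 of the 8 groups, libraries 1 and 3, and likewise 2 and 4, resembled each other more than did the remaining pairs of the group. The 2 groups where this failed for 1 of the pairs were WT cells without LPS in either medium. Chi-square per degree of freedom had a median of 6.37 over these 16 pairs, against 27.6 over the other 32 pairs. All pairs differed by more than counting noise, which does not show that they are separate replicates. The 4 libraries were treated as 4, and counts of calls with these pairs summed to 2 libraries a group stand beside the main counts. In bulk RNA, fewer cells of a type and less RNA per cell cannot be told apart.

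The C/EBP-ATF response element was searched in the members' promoters, because it is the site through which ATF4 is known to act. The search used the letters TGATGNAA on both strands, from 250 bases before to 50 after the transcription start given for each gene on GRCm38.p6 (mm10). That start need not be the outermost end of the gene. The Vldlr window printed below lies inside the RefSeq gene, which begins at chr19:27216480. Of the 35 members, 27 had a promoter sequence and 13 of these held the motif (48.1%). Over all genes, 4.51% of the 27025 with a promoter sequence of that length held the motif, as did 2.89% of the 9096 of them tested here. The members were listed as genes of the ATF4 response. A larger share among them can therefore follow from that choice and is no test of it. The 6 windows below belong to members on which the results turn. Each is 28 bases on the gene's strand, 5′ to 3′, with the motif or its reverse complement in capitals.
Asns, chr6:7693215-7693242, minus strand: cccagccacaTGATGAAActtcccgcac
Chac1, chr2:119351039-119351066, plus strand: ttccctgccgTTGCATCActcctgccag
Slc1a4, chr11:20332700-20332727, minus strand: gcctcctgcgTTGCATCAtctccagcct
Trib3, chr2:152344029-152344056, minus strand: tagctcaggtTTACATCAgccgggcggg
Nupr1, chr7:126625563-126625590, minus strand: aagggccagaTTGCATCAgacagggctt
Vldlr, chr19:27216810-27216837, plus strand: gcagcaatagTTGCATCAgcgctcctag
A match of letters describes the window and does not show binding.

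Low M-CSF lowered most of the members in both genotypes before LPS was added. The low medium was compared with the normal medium to see how the response stood when the growth factor was scarce. In T2KO cells without LPS 25 of the 33 members fell and 3 rose, where 48.2% of the 11244 genes tested were called, 21.7% lower and 26.6% higher. In WT cells without LPS 25 fell and 4 rose, where 44.3% of all genes were called, 21.9% lower and 22.4% higher. The median log2 fold change of the members was −1.18 in T2KO cells and −1.35 in WT cells, against 0.10 and 0.01 over all genes tested. Falling in both genotypes were 24 members, against 15.8% of all genes. Calls are edgeR quasi-likelihood tests at an adjusted p under 0.05, adjusted over all genes. With libraries summed in pairs, 24 members were called in each genotype. The sum of neutrophil markers moved with the medium too: the 11 measured summed to 197 to 261 CPM in low and 83.8 to 92.3 CPM in normal M-CSF in T2KO cells, and to 126 to 155 CPM and 73.4 to 93.1 CPM in WT cells. S100a8, S100a9 and Mmp8 made up most of it. Mmp9 went the other way, with means of 1.36 and 6.79 CPM in T2KO and 1.09 and 2.44 CPM in WT cells. So did the means of Elane, Mpo and Retnlg in WT cells. The sum of macrophage markers was higher in low M-CSF as well. It was 9245 to 10784 CPM in low and 5458 to 6286 CPM in normal M-CSF in T2KO cells. The WT sums were 8517 to 10053 CPM and 5125 to 5683 CPM. Mean Cd14 went the other way, as did Itgam in T2KO cells and Cd68 and Spi1 in WT cells. Dendritic cell markers summed to 5.81 to 10.0 CPM in low and 0 to 0.930 CPM in normal M-CSF in T2KO cells. In WT cells they summed to 1.02 to 7.72 CPM and 0.0765 to 0.608 CPM. Most of the sum in low M-CSF was Siglech alone. Its means in low and normal M-CSF were 7.17 and 0.179 CPM in T2KO and 3.70 and 0.0892 CPM in WT cells. Mean Clec9a went the other way in both genotypes. The part of these cell types in the members' changes was not tested.

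**Figure D1:**
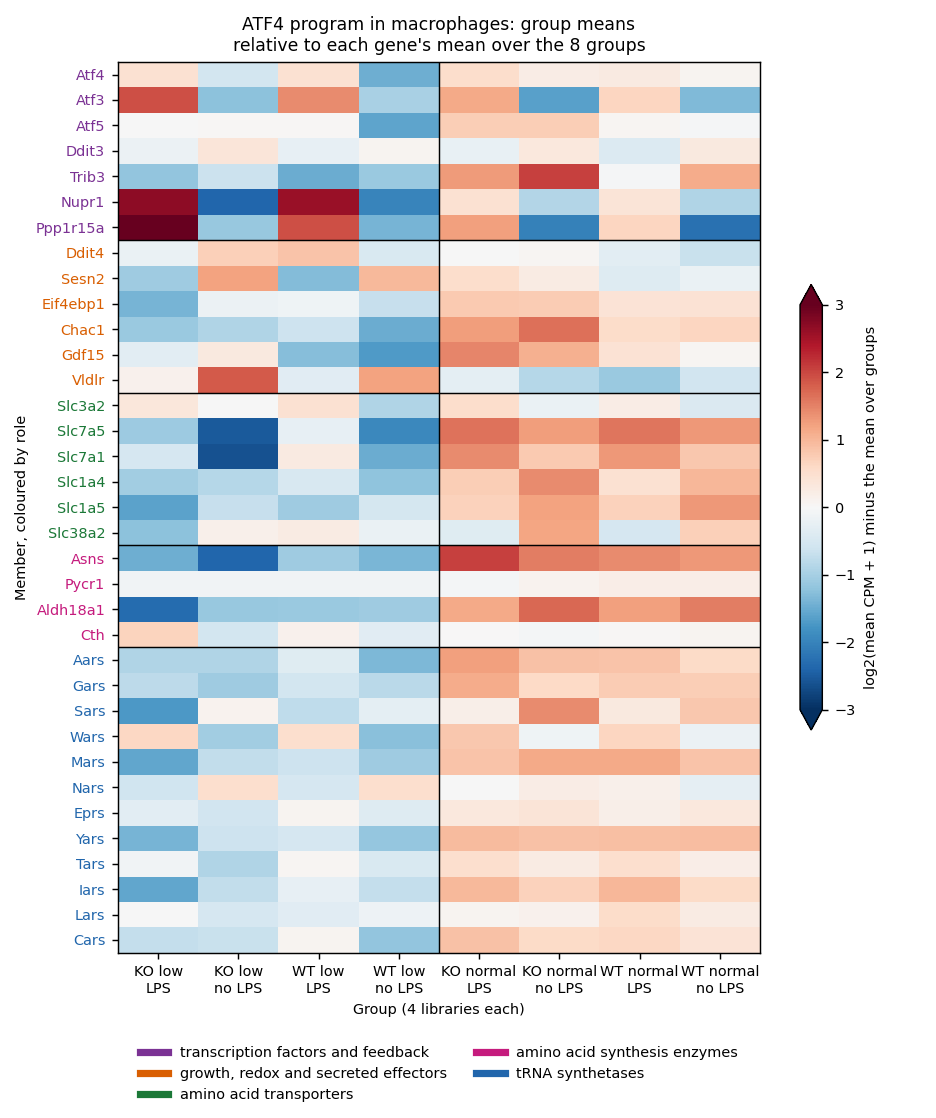
Heat map of the 35 members (rows, by role) in the 8 groups (columns): log2(mean CPM + 1) minus the gene's mean over the groups, with colours clipped at 3 in either direction. Asns, Aldh18a1, 11 of the 12 tRNA synthetases and the transporters Slc7a5, Slc7a1, Slc1a4 and Slc1a5 have a lower mean in low than in normal M-CSF in all 4 settings, and Ppp1r15a, Atf3 and Nupr1 are highest in the LPS groups in low M-CSF.

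Asparagine synthetase, Asns, which makes asparagine from aspartate and glutamine, showed how wide the gap was. In T2KO cells without LPS its 4 libraries in low M-CSF had 1.82, 3.56, 1.83 and 3.64 CPM, against 56.6, 54.0, 52.1 and 54.6 CPM in normal M-CSF. In WT cells without LPS it had 5.36, 6.53, 4.67 and 8.90 CPM in low M-CSF, against 47.8, 41.6, 45.7 and 48.5 CPM in normal M-CSF. In both genotypes all 4 libraries in low medium lay far below all 4 in normal medium. The log2 fold change was −4.25 ± 0.31 (SE) in T2KO cells and −2.86 ± 0.29 in WT cells, with adjusted p = 3.69e-14 and 4.78e-10. Aldh18a1, which makes the proline precursor pyrroline-5-carboxylate from glutamate, fell by 3.10 ± 0.24 on the log2 scale in T2KO cells and fell by 2.86 ± 0.25 in WT cells. Of the other enzymes, Pycr1 had at most 9 counts in a group and Cth at most 35, too few to test.

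The amino acid transporters moved the same way, with 5 of 6 lower in T2KO cells and 6 of 6 in WT cells. Slc7a5, the light chain of the leucine transporter LAT1, had 0.912, 1.09, 1.56 and 0.760 CPM in T2KO cells in low M-CSF without LPS, against 21.8, 29.4, 24.0 and 33.3 CPM in normal M-CSF. In WT cells it had 2.30, 3.71, 1.75 and 0.671 CPM in low M-CSF, against 47.6, 19.4, 22.6 and 24.6 CPM in normal M-CSF. The ranges did not meet in either genotype, and the log2 fold changes were −4.65 ± 0.44 in T2KO cells and −3.71 ± 0.42 in WT cells. Slc7a1, which imports arginine and lysine, fell by 3.67 ± 0.26 in T2KO cells and by 2.38 ± 0.25 in WT cells. Slc1a5, a glutamine transporter, fell by 2.01 ± 0.27 and 1.92 ± 0.27, and Slc38a2, which also carries glutamine, by 1.02 ± 0.23 and 0.93 ± 0.23. Slc3a2, the heavy chain that pairs with Slc7a5, fell by 0.46 ± 0.18 in WT cells, a call lost without any 1 of 5 of the 8 libraries, with adjusted p up to 0.153 (without WT low M-CSF library 2). In T2KO cells its log2 fold change was 0.20 ± 0.18 (adjusted p = 0.372).

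Chac1, an enzyme that degrades glutathione, and Slc1a4, a transporter of serine, alanine and cysteine, had no counts in any of the 4 WT libraries in low M-CSF without LPS. In normal M-CSF without LPS, the 4 WT libraries had 5.05, 2.92, 2.45 and 2.95 CPM of Chac1 and 5.20, 2.07, 3.98 and 3.10 CPM of Slc1a4. Set against 3 counts over the group, or 0.105 CPM, Chac1 was at least 31.7-fold lower and Slc1a4 at least 34.0-fold lower in low medium. Such bounds cover the counts of 0 and leave out the error of the other group's mean. T2KO cells kept some counts of both genes in low M-CSF. There Chac1 had 0.760, 0.363, 0.550 and 0.326 CPM, against 5.69, 8.04, 6.80 and 10.8 CPM in normal M-CSF, a log2 fold change of −4.02 ± 0.54. Slc1a4 had 0, 0.727, 0.275 and 0.163 CPM in T2KO cells in low M-CSF, against 4.45, 6.68, 4.23 and 5.27 CPM in normal M-CSF, a log2 fold change of −3.95 ± 0.63.

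The tRNA synthetases, which attach amino acids to their tRNAs, were the largest set. In low M-CSF without LPS, 11 of 12 fell in T2KO cells and 10 of 12 in WT cells, with median log2 fold changes of −1.28 and −1.24. Of these calls, Tars in WT cells was lost without any 1 of 6 of the 8 libraries (adjusted p up to 0.196, without WT low M-CSF library 1), Eprs in WT cells without any 1 of 4 (up to 0.072, without WT normal M-CSF library 4) and Lars in T2KO cells without any 1 of 4 (up to 0.112, without T2KO low M-CSF library 3). Mars, the methionine enzyme, fell by 1.93 ± 0.23 in T2KO cells and by 2.01 ± 0.24 in WT cells. Its 3′ end shares 71 bases (chr10:127296221-127296291, mm10) with that of Ddit3 on the other strand, and the strand setting of the counting is not given in the sources used here, so the levels of both are uncertain. Aars, the alanine enzyme, fell by 1.84 ± 0.21 and 1.99 ± 0.21, and Yars, the tyrosine enzyme, by 1.59 ± 0.23 and 2.23 ± 0.25. Nars, the asparagine enzyme, went the other way in WT cells, at 469 ± 179.5 CPM in low and 274 ± 46.1 CPM in normal M-CSF (log2 fold change 0.77 ± 0.23, adjusted p = 0.00689, and 0.0561 without WT low M-CSF library 1). Its log2 fold change was 0.30 ± 0.23 in T2KO cells (adjusted p = 0.295).

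**Figure D2:**
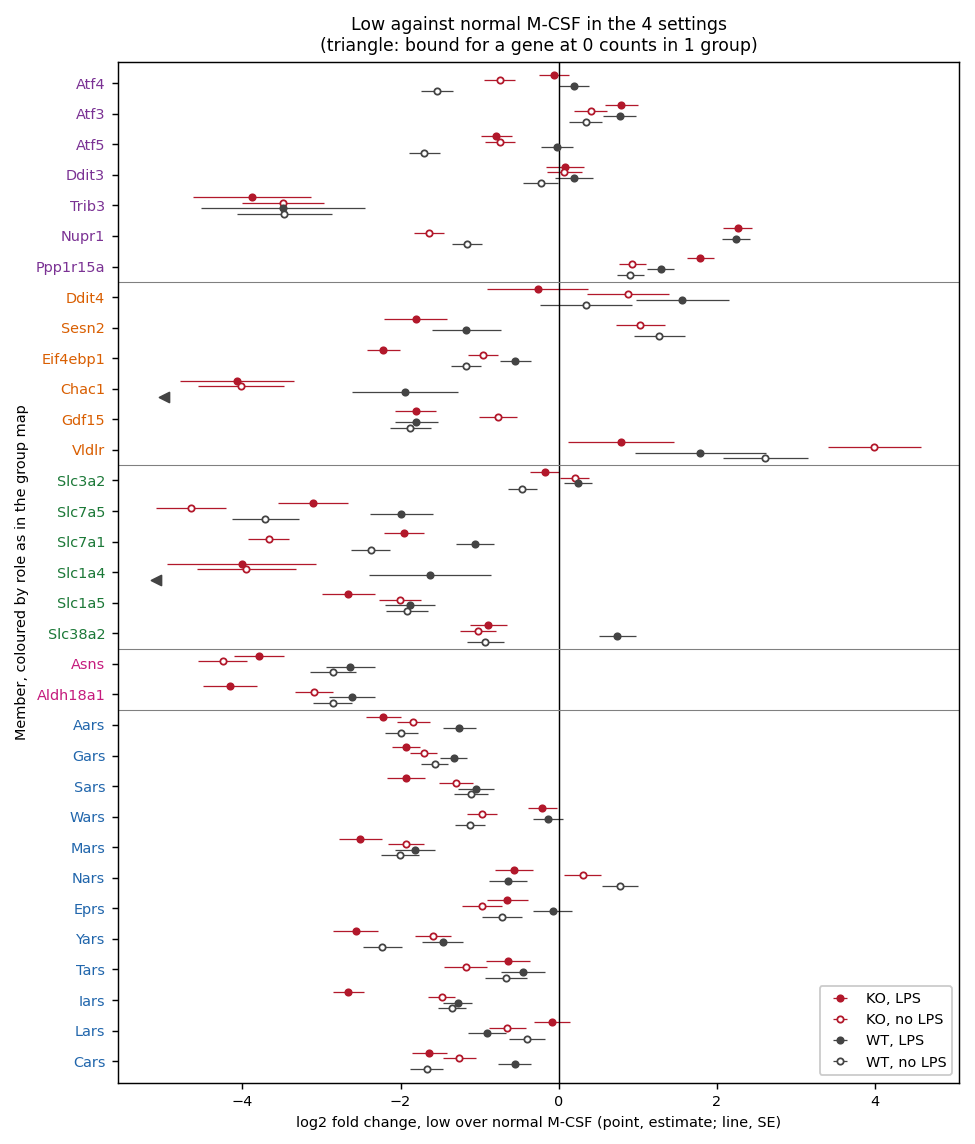
Log2 fold change, low over normal M-CSF, of the 33 members tested (rows, by role) with SE, in 4 settings: T2KO (red) and WT (grey) cells, with LPS (filled) and without it (open). Triangles mark bounds for Chac1 and Slc1a4 in WT cells without LPS, and most points lie left of 0, with Ppp1r15a right of 0 in all 4 settings.

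The transcription factors were mixed. Atf4 had 176, 330.1, 141 and 282 CPM in T2KO cells in low M-CSF without LPS, against 391, 424, 349 and 403 CPM in normal M-CSF. In WT cells it had 111, 136, 110.3 and 132 CPM in low M-CSF, against 426, 351, 320.5 and 325 CPM in normal M-CSF. Neither pair of ranges overlapped, and Atf4 fell by 0.75 ± 0.20 in T2KO cells (adjusted p = 0.00167) and by 1.54 ± 0.20 in WT cells (adjusted p = 8.60e-08). Within the T2KO low group, libraries 1 and 3 were low and 2 and 4 high. Trib3, a pseudokinase that restrains ATF4, fell by 3.49 ± 0.52 in T2KO cells and by 3.47 ± 0.60 in WT cells. Atf5 fell by 0.74 ± 0.19 and 1.70 ± 0.20. Nupr1, a stress-induced chromatin regulator, fell by 1.64 ± 0.19 and 1.16 ± 0.19.

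The exceptions that rose in low M-CSF without LPS were the same 3 in both genotypes, with Nars the fourth in WT cells. Ppp1r15a encodes GADD34, which brings a phosphatase to eIF2 and ends the stress response. It had 23.7, 23.5, 26.1 and 28.2 CPM in T2KO cells in low M-CSF, against 11.0, 13.7, 14.6 and 13.9 CPM in normal M-CSF, and 20.2, 19.1, 24.2 and 21.0 CPM in WT cells in low M-CSF, against 10.6, 10.5, 11.2 and 12.9 CPM in normal M-CSF. No low-medium library overlapped the normal-medium range of its genotype, and the log2 fold changes were 0.93 ± 0.17 and 0.90 ± 0.17. Sesn2, a leucine sensor that inhibits mTORC1, had 23.7, 15.3, 20.7 and 15.3 CPM in T2KO cells in low M-CSF, against 10.0, 9.26, 9.37 and 7.75 CPM in normal M-CSF. In WT cells Sesn2 had 9.82, 19.9, 7.74 and 25.4 CPM in low M-CSF, against 8.85, 6.38, 4.74 and 5.77 CPM in normal M-CSF. The T2KO ranges were apart, the WT ranges overlapped at WT low M-CSF library 3, and the log2 fold changes were 1.03 ± 0.31 and 1.27 ± 0.32. Vldlr, a lipoprotein receptor induced by ATF4, had 13.7, 6.61, 8.26 and 6.84 CPM in T2KO cells in low M-CSF, against 1.03, 0.152, 0.414 and 0.465 CPM in normal M-CSF. In WT cells it had 5.49, 5.25, 4.67 and 5.71 CPM in low M-CSF, against 0.932, 1.09, 0.612 and 0.703 CPM in normal M-CSF. The groups were apart in both genotypes, with log2 fold changes of 3.99 ± 0.59 and 2.61 ± 0.54. The Vldlr promoter holds the response element printed above, as do those of Asns, Chac1, Slc1a4 and Trib3, which fell. Among members with a promoter sequence, the median log2 fold change in low M-CSF was −1.67 with the motif (n = 12) and −0.76 without it (n = 14) in T2KO cells, and −1.78 and −1.02 in WT cells, given as a description with no test.

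Among cells that had received LPS, most tRNA synthetases and both synthesis enzymes tested, Asns and Aldh18a1, were again lower in low M-CSF. In T2KO cells with LPS 23 of 33 members fell and 3 rose in low M-CSF, where 59.2% of all genes were called, 32.8% lower and 26.5% higher. In WT cells with LPS 19 fell and 5 rose, where 45.6% of all genes were called, 24.2% lower and 21.4% higher. The members' median was −1.81 in T2KO cells and −0.91 in WT cells, against −0.14 and −0.10 over all genes. Scaling by total counts gave 27 lower and 2 higher in T2KO cells and 23 lower and 2 higher in WT cells, with all-gene medians of −0.70 and −0.56. In pairs of summed libraries 23 were called in T2KO cells and 15 in WT cells. Neutrophil marker sums here were 285 to 437 CPM in low and 124 to 180.2 CPM in normal M-CSF in T2KO cells, and 216 to 236 CPM and 136 to 164 CPM in WT cells, and their part was not tested. Mmp9 again went the other way, with means of 3.79 and 13.8 CPM in T2KO and 9.15 and 13.6 CPM in WT cells, as did Mpo in WT cells. Macrophage marker sums were higher in low M-CSF as well, at 11096 to 11832 CPM and 8442 to 9316 CPM in T2KO cells. In WT cells they were 8828 to 12304 CPM and 7093 to 8054 CPM. Mean Cd68 in both genotypes and mean Mrc1 in WT cells went the other way. Across all 4 medium comparisons, which share no library between genotypes or LPS settings, 16 members were lower every time, against 9.50% of all genes: Aars, Aldh18a1, Asns, Cars, Chac1, Eif4ebp1, Gars, Gdf15, Iars, Mars, Sars, Slc1a5, Slc7a1, Slc7a5, Trib3 and Yars. Of these, the calls of Eif4ebp1, Chac1 and Cars in WT cells with LPS and of Gdf15 in T2KO cells without LPS were lost without 1 library, with adjusted p up to 0.115 for Eif4ebp1 (without WT low M-CSF LPS library 3), 0.0674 for Chac1 (library 3), 0.108 for Cars (library 4) and 0.0543 for Gdf15 (without T2KO normal M-CSF library 4). Only Ppp1r15a was higher in all 4, where 7.63% of genes were.

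With LPS in low M-CSF, Asns had 7.41, 1.0, 4.61 and 10.7 CPM in T2KO cells, against 91.5, 62.0, 93.9 and 64.9 CPM in normal M-CSF. In WT cells with LPS it had 8.95, 4.55, 5.25 and 13.7 CPM in low M-CSF, against 53.1, 44.3, 55.9 and 48.7 CPM in normal M-CSF. The groups were again well apart, at log2 fold changes of −3.79 ± 0.32 and −2.64 ± 0.31. Aldh18a1 had 1.54, 1.0, 1.79 and 0 CPM in T2KO cells with LPS in low M-CSF, against 19.9, 20.5, 26.7 and 20.1 CPM in normal M-CSF. WT cells with LPS had 4.31, 3.31, 4.04 and 3.42 CPM in low M-CSF, against 25.2, 23.6, 27.9 and 16.1 CPM in normal M-CSF. Its log2 fold changes were −4.16 ± 0.34 and −2.61 ± 0.29, with no overlap in either genotype. Trib3 was at 0 in 3 of the 4 WT libraries with LPS in low M-CSF and had 0.856 CPM in the fourth, against 2.51, 1.53, 4.61 and 0.742 CPM in normal M-CSF. That one library exceeded the lowest of the normal group, and the log2 fold change was −3.49 ± 1.04 (adjusted p = 0.00605).

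Nupr1 behaved in opposite ways with and without LPS. It had 262, 249, 264 and 271 CPM in T2KO cells with LPS in low M-CSF, against 45.7, 67.5, 48.8 and 57.0 CPM in normal M-CSF, and 274, 203, 308 and 197 CPM in WT cells with LPS in low M-CSF, against 53.0, 55.7, 43.1 and 55.9 CPM in normal M-CSF. All libraries in low M-CSF exceeded all in normal M-CSF, with log2 fold changes of 2.26 ± 0.18 and 2.24 ± 0.18, whereas without LPS the gene fell in low M-CSF. Atf4 was not called between media once LPS was present, with log2 fold changes of −0.06 ± 0.19 in T2KO cells (adjusted p = 0.805) and 0.19 ± 0.19 in WT cells (adjusted p = 0.443). Slc38a2 divided the genotypes by TMM: among cells with LPS it was lower in low M-CSF in T2KO cells (−0.89 ± 0.23) and higher in WT cells (0.74 ± 0.23). The difference between those log2 fold changes was −1.63 ± 0.33 (adjusted p = 0.00338). The size of the WT rise depended on the scaling. Total counts set the all-gene median of that WT comparison at −0.56, where TMM gave −0.10, and left 2 members called higher. Ddit4, an mTORC1 inhibitor, was higher in low M-CSF in WT cells with LPS, at 0.994, 10.3, 6.06 and 4.71 CPM, against 0.953, 2.12, 2.31 and 2.23 CPM in normal M-CSF. The lowest of these libraries overlapped the normal group, and the call (1.56 ± 0.59, adjusted p = 0.0296) was lost without WT low M-CSF LPS library 2 (0.186) or 3 (0.0597), or WT normal M-CSF LPS library 1 (0.101).

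**Figure D3:**
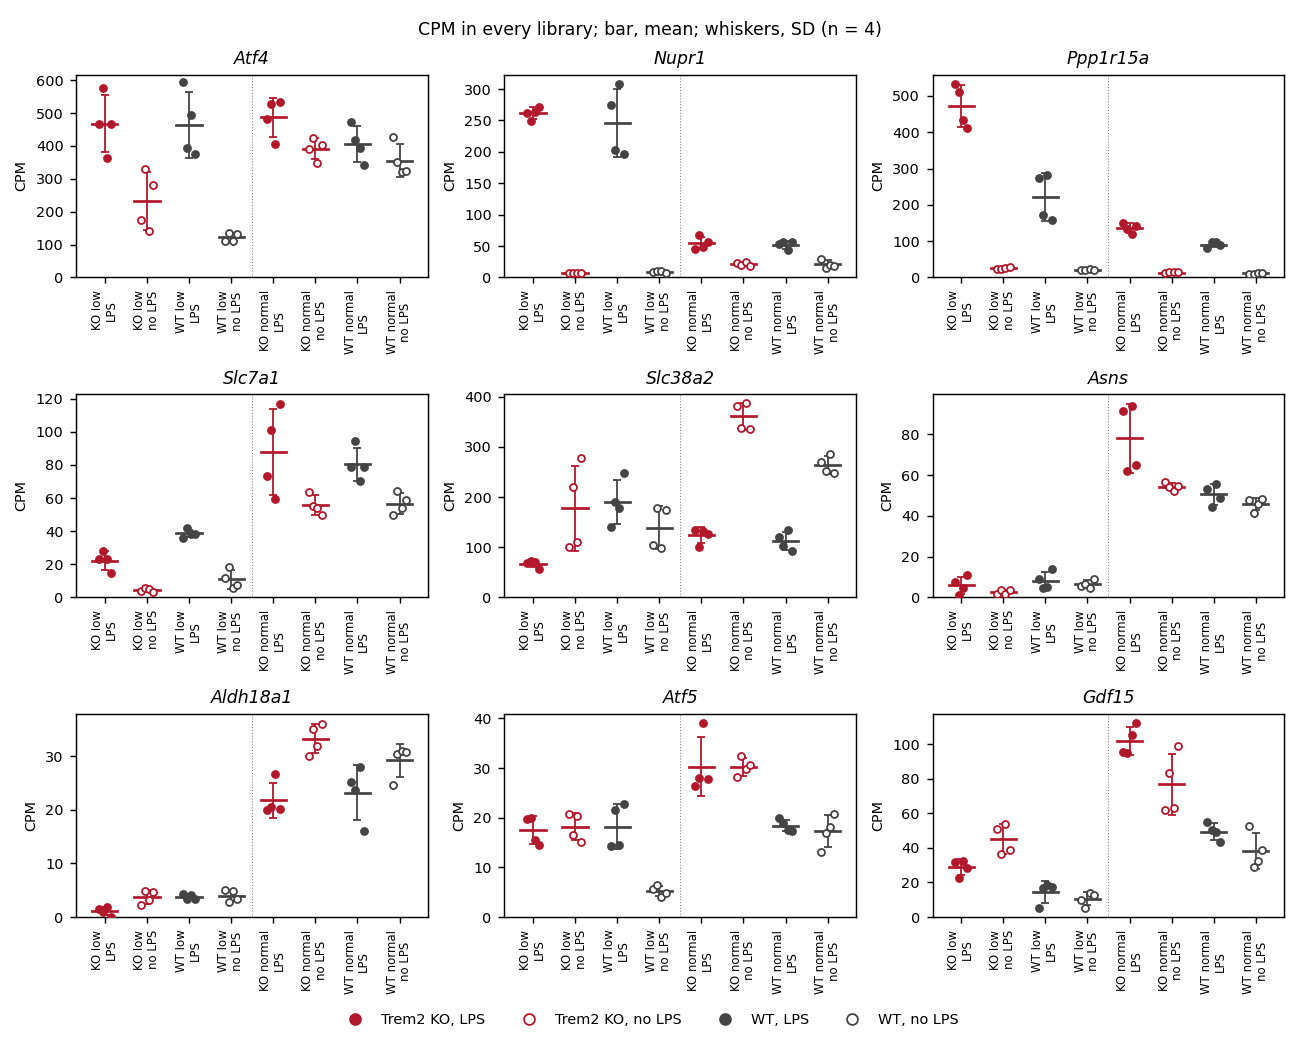
CPM of Atf4, Nupr1, Ppp1r15a, Slc7a1, Slc38a2, Asns, Aldh18a1, Atf5 and Gdf15 in each of the 32 libraries (points) by group, with the group mean and SD (n = 4). Asns and Aldh18a1 are low in all 4 low M-CSF groups, Nupr1 is highest in the LPS groups in low M-CSF, and Gdf15 is higher in T2KO than in WT cells in each condition.

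More of the set was called with LPS in low medium than in normal medium, as was true of all genes. In T2KO cells in low M-CSF 9 of 33 members rose and 13 fell with LPS, where 67.5% of all genes were called, 26.5% higher and 41.0% lower. In WT cells in low M-CSF 17 rose and 3 fell, where 60.7% of all genes were called, 27.0% higher and 33.6% lower. In normal M-CSF 7 rose and 4 fell in T2KO cells, where 42.7% of all genes were called, 20.9% higher and 21.8% lower. In WT cells in normal M-CSF 6 rose and 3 fell, where 36.1% of all genes were called, 18.3% higher and 17.9% lower. The shares of members called in either direction were therefore near those of all genes or below them. Summed pairs gave 19, 18, 6 and 6 calls in the same order. Marker sums of other cell types moved with LPS as well, and their part in the members' changes was not tested. Macrophage marker sums in normal M-CSF were 8442 to 9316 CPM with LPS and 5458 to 6286 CPM without it in T2KO cells. In WT cells they were 7093 to 8054 CPM and 5125 to 5683 CPM. In low M-CSF they were 11096 to 11832 CPM and 9245 to 10784 CPM in T2KO cells. Those of WT cells overlapped there, and mean Csf1r, Cd68, Lyz2, Mertk and Mrc1 fell with LPS in both genotypes. In low M-CSF neutrophil marker sums were 285 to 437 CPM with LPS and 197 to 261 CPM without it in T2KO cells, and 216 to 236 CPM and 126 to 155 CPM in WT cells. Mean Mmp8 in WT cells and mean Elane in T2KO cells went the other way there. In normal M-CSF the sums were 124 to 180.2 CPM with LPS and 83.8 to 92.3 CPM without it in T2KO cells, and 136 to 164 CPM and 73.4 to 93.1 CPM in WT cells. The 8 stromal markers summed to 8.96 to 18.7 CPM with LPS and 0.977 to 4.22 CPM without it in T2KO cells in low M-CSF, and to 16.2 to 22.2 CPM and 1.54 to 2.94 CPM in WT cells, with Lum and Thy1 at 0 in all 4 of these groups. Most of the sum with LPS was Pdgfrb alone. Its mean was 11.3 CPM with LPS and 0.295 CPM without it in T2KO cells, and 16.0 CPM and 0.667 CPM in WT cells. No other stromal marker averaged above 1.38 CPM in these groups. In normal M-CSF the 8 stromal markers summed to 1.49 to 3.28 CPM with LPS and 0.166 to 1.14 CPM without it in T2KO cells, and to 3.03 to 9.15 CPM and 0.388 to 2.22 CPM in WT cells.

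These LPS counts moved with the scaling. Total-count scaling set the all-gene median at −1.30 for T2KO and −0.94 for WT cells in low M-CSF, where TMM gave −0.36 and −0.18, and at −0.58 and −0.47 in normal M-CSF, where TMM gave −0.05 and −0.04. Under it 5 members were higher and 21 lower with LPS in T2KO cells in low M-CSF, and 12 higher and 9 lower in WT cells. The corresponding counts in normal M-CSF were 3 and 13 in T2KO cells and 3 and 9 in WT cells. Size factors by the RLE method gave 12 and 11 in T2KO cells in low M-CSF and 5 and 5 in WT cells in normal M-CSF. Relative to the all-gene median, the members' median in low M-CSF was −0.13 in T2KO cells and 0.71 in WT cells with TMM, the same with RLE, and −0.09 and 0.70 with total counts. The T2KO value was 0.22 without the filter, 0.26 with only the groups compared and 0.10 with pairs summed, so its sign depended on the processing. The WT values were then 0.53, 0.65 and 0.75.

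Higher with LPS in all 4 settings were Atf3, Nupr1, Ppp1r15a and Wars, where 13.2% of all genes were. Ppp1r15a had 533, 512, 433 and 413 CPM in T2KO cells with LPS in low M-CSF, against 23.7, 23.5, 26.1 and 28.2 CPM without it. In WT cells in low M-CSF it had 275, 171, 283 and 157 CPM with LPS, against 20.2, 19.1, 24.2 and 21.0 CPM without it. Its log2 fold changes were 4.22 ± 0.18 in T2KO and 3.39 ± 0.18 in WT cells. In normal M-CSF it had 150.5, 133, 119 and 143 CPM with LPS in T2KO cells, against 11.0, 13.7, 14.6 and 13.9 CPM without it, and 81.0, 96.3, 97.0 and 88.3 CPM with LPS in WT cells, against 10.6, 10.5, 11.2 and 12.9 CPM without it. The LPS groups were far above the others in both media, with log2 fold changes of 3.36 ± 0.18 and 3.01 ± 0.18 in normal M-CSF.

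Nupr1 had 6.53, 7.12, 7.34 and 6.35 CPM in T2KO cells and 9.19, 10.9, 9.93 and 7.22 CPM in WT cells in low M-CSF without LPS, far below the LPS values given above. LPS raised it by 5.26 ± 0.21 on the log2 scale in T2KO cells and by 4.71 ± 0.21 in WT cells, and in normal M-CSF by 1.35 ± 0.18 and 1.31 ± 0.18. The response was larger in low medium in both genotypes, with a difference of log2 fold changes of 3.90 ± 0.26 in T2KO cells (adjusted p = 1.09e-13) and 3.40 ± 0.26 in WT cells (adjusted p = 1.66e-11). Atf3, a bZIP factor that LPS signalling itself induces and that restrains inflammatory genes, had 1205, 999, 1009 and 794 CPM in T2KO cells with LPS in low M-CSF, against 91.6, 129, 94.2 and 131 CPM without it. In WT cells in low M-CSF it had 964, 469.5, 895 and 462 CPM with LPS, against 123, 152, 110.2 and 142 CPM without it. Every LPS library was above every library without LPS, at log2 fold changes of 3.17 ± 0.22 and 2.40 ± 0.22. In normal M-CSF Atf3 had 653, 529.5, 569.8 and 559.9 CPM with LPS in T2KO cells, against 105, 56.5, 107 and 68.5 CPM without it, and 387, 448, 427 and 379.7 CPM with LPS in WT cells, against 109, 112, 97.1 and 97.8 CPM without it. Those log2 fold changes were 2.77 ± 0.22 and 1.98 ± 0.21. Wars, the tryptophan enzyme and a known interferon target, rose by 1.73 ± 0.19 in T2KO and 1.84 ± 0.20 in WT cells in low M-CSF, and by 0.96 ± 0.18 and 0.85 ± 0.18 in normal M-CSF.

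Atf4 rose with LPS in low M-CSF, to 467, 576, 362 and 466 CPM in T2KO cells, against 176, 330.1, 141 and 282 CPM without LPS, and to 593, 394, 494 and 375 CPM in WT cells, against 111, 136, 110.3 and 132 CPM without LPS. The LPS libraries exceeded the others in both genotypes, with log2 fold changes of 1.01 ± 0.20 and 1.92 ± 0.20. By total counts the T2KO value was 0.07 (adjusted p = 0.724). In normal M-CSF the log2 fold change of Atf4 was 0.32 ± 0.19 in T2KO cells (adjusted p = 0.195) and 0.19 ± 0.19 in WT cells (adjusted p = 0.468). The difference in the LPS response between media was 1.73 ± 0.28 in WT cells (adjusted p = 1.74e-05). In T2KO cells it was 0.69 ± 0.27 (adjusted p = 0.0475), and it was lost in 12 of the leave-one-out fits, with adjusted p up to 0.138 (without T2KO low M-CSF library 3).

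Several targets with little mRNA in low M-CSF rose with LPS while staying under their level in normal medium. Slc7a5 had 0.309, 2.0, 4.35 and 11.7 CPM with LPS in T2KO cells in low M-CSF, against 0.912, 1.09, 1.56 and 0.760 CPM without it, and 4.64, 13.6, 4.44 and 13.3 CPM with LPS in WT cells, against 2.30, 3.71, 1.75 and 0.671 CPM without it. The T2KO groups overlapped and the WT groups did not. Its log2 fold change was 1.94 ± 0.54 in T2KO cells, lost without T2KO low M-CSF LPS library 4 (adjusted p = 0.0885) and under total-count scaling (1.01, adjusted p = 0.0835), and 2.02 ± 0.48 in WT cells. Slc7a1 rose in both genotypes, by 2.36 ± 0.27 and 1.82 ± 0.25. Asns rose by 0.99 ± 0.36 in T2KO cells (adjusted p = 0.0147), a call lost without T2KO low M-CSF LPS library 1 (0.0823) or 4 (0.145), without T2KO low M-CSF library 3 without LPS (0.0561), or under total-count scaling (0.06, adjusted p = 0.88). Chac1 had 0.663, 0, 0 and 2.57 CPM in WT cells with LPS in low M-CSF, and Slc1a4 had 1.32, 0, 0 and 1.28 CPM, against no counts in any WT library without LPS. That made Chac1 at least 7.66-fold and Slc1a4 at least 6.18-fold higher in mean, from 8 and 7 counts in 2 libraries each, with the error of the LPS means left out. In T2KO cells with LPS, Chac1 had 0.926, 0, 0.256 and 0 CPM and Slc1a4 had 0, 0, 0.512 and 0 CPM.

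The effectors that had risen in low medium fell with LPS there. Sesn2 had 3.40, 2.67, 3.84 and 2.43 CPM with LPS in T2KO cells in low M-CSF, and 1.99, 2.07, 4.85 and 0.856 CPM in WT cells, all below the 15.3 to 23.7 CPM and 7.74 to 25.4 CPM without LPS. It fell by 2.56 ± 0.38 and 2.67 ± 0.42 on the log2 scale. In normal M-CSF its means were 11.2 ± 5.85 CPM with LPS and 9.10 ± 0.963 CPM without it in T2KO cells, and 5.54 ± 0.712 CPM and 6.44 ± 1.75 CPM in WT cells. The difference in response between media was −2.84 ± 0.50 in T2KO cells and −2.44 ± 0.54 in WT cells (adjusted p = 4.56e-05 and 0.00100). Vldlr had 3.71, 2.0, 0.768 and 1.46 CPM with LPS in T2KO cells in low M-CSF, and 2.65, 2.07, 0 and 0 CPM in WT cells, below all 4 libraries without LPS in each genotype, with log2 fold changes of −2.14 ± 0.57 and −2.07 ± 0.64.

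In normal M-CSF the largest falls with LPS were in Slc38a2, Sars and Trib3. Slc38a2 had 135, 101, 132 and 127 CPM with LPS in T2KO cells, against 381, 338, 388 and 336 CPM without it, and 119.6, 103, 135 and 93.0 CPM with LPS in WT cells, against 270.5, 252, 286 and 248 CPM without it. The groups were apart, at −1.54 ± 0.23 and −1.23 ± 0.23. Sars, the serine enzyme, had 138, 182, 131 and 172 CPM with LPS in T2KO cells, against 419, 396, 337 and 319 CPM without it, a log2 fold change of −1.24 ± 0.22. Its WT libraries had 146, 219.7, 143 and 162 CPM with LPS and 185, 255, 298 and 229.6 CPM without it, which overlapped. Trib3 had 2.51, 1.53, 4.61 and 0.742 CPM with LPS in WT cells, against 6.52, 6.75, 6.73 and 5.91 CPM without it, and fell by 1.44 ± 0.50 (adjusted p = 0.0218), a call lost without WT normal M-CSF LPS library 2 (0.0787) or 4 (0.0740). In T2KO cells Trib3 had 4.15, 4.70, 10.5 and 9.96 CPM with LPS, against 11.8, 14.6, 12.4 and 14.3 CPM without it. Those ranges did not overlap, yet the fitted change was −0.82 ± 0.46 (adjusted p = 0.153).

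In low M-CSF the LPS response of the set differed between the genotypes. The test of that difference called 16 of 33 members lower and 1 higher in T2KO relative to WT cells, where 16.0% of all genes were called, 8.49% lower and 7.52% higher. The median difference of log2 fold changes was −0.58 over the members and −0.13 over all genes. This count is sensitive to how libraries are treated: with pairs summed, 2 members were called (Atf5 and Eif4ebp1) and 0.757% of all genes, and with only the 4 groups concerned fitted, 8 were. In normal M-CSF the same edgeR test called 0 members, where 0.534% of all genes were called, with 4 of 33 members and 10.5% of genes at an unadjusted p under 0.05, and DESeq2 also called 0 members. The members called lower in low M-CSF were spread over the roles: 2 transcription factors, 4 effectors, 3 transporters, 1 synthesis enzyme and 6 tRNA synthetases. Among them, Atf4, Atf5, Ddit4, Eif4ebp1, Chac1, Gdf15, Slc3a2 and Slc1a4 were also called higher in T2KO than in WT cells before LPS. Their differences in response therefore include a genotype difference without LPS. For Chac1 and Slc1a4, WT cells without LPS had no counts. The 1 member called higher was Ppp1r15a (0.83 ± 0.23, adjusted p = 0.0151). The call of Gdf15 (adjusted p = 0.0475) was lost in 11 of 16 leave-one-out fits, up to 0.122 (without WT low M-CSF library 2). Those of Aldh18a1 and Aars were lost in 4 and 3 fits, up to 0.0588 (without WT low M-CSF library 2) and 0.0527 (without T2KO low M-CSF LPS library 3).

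**Figure D4:**
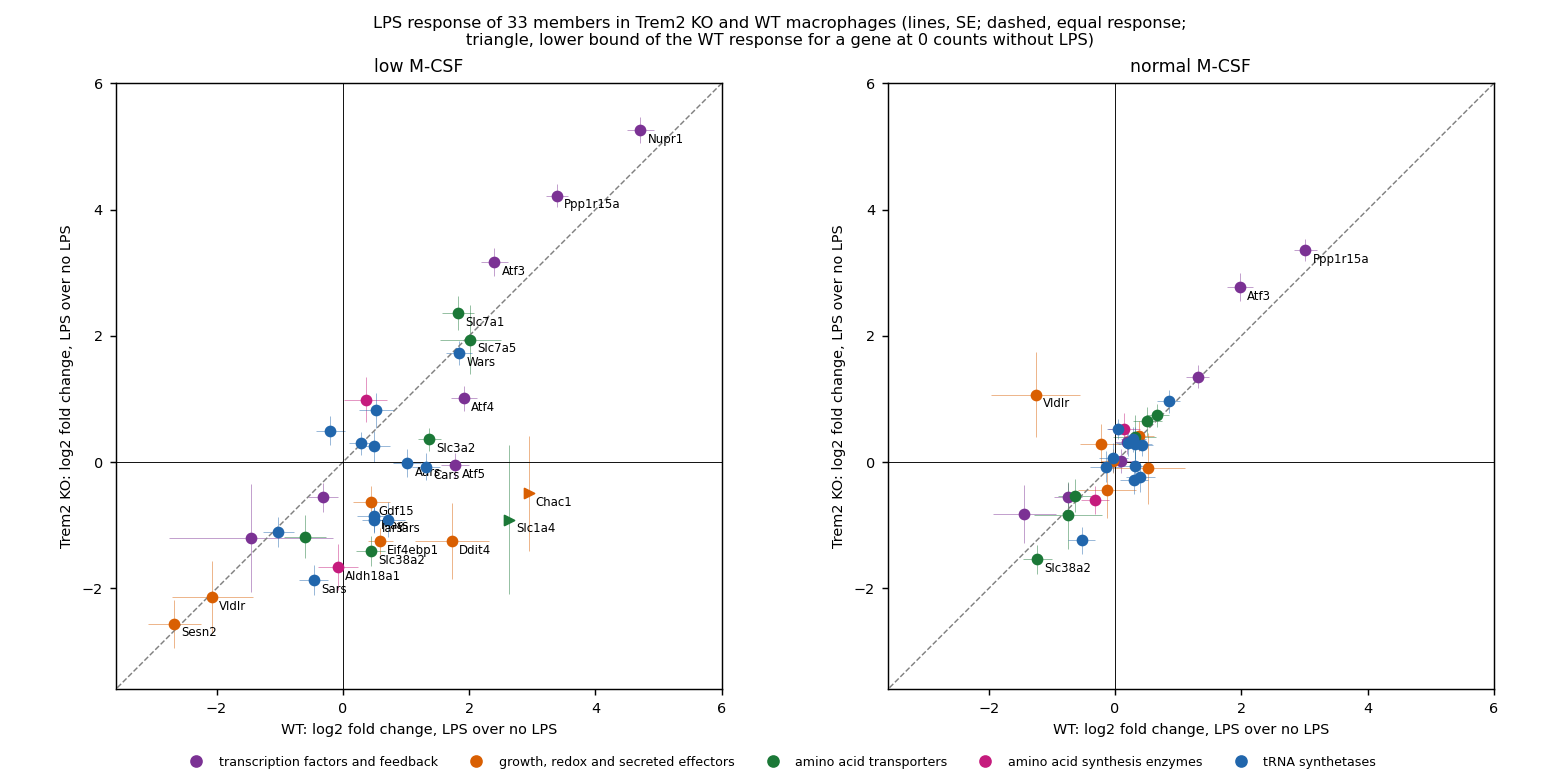
LPS log2 fold change of the 33 members in T2KO cells (vertical) against WT cells (horizontal), in low M-CSF (left) and normal M-CSF (right), with the diagonal of equal change. In low M-CSF 23 members lie under the diagonal and 10 above it, among these Ppp1r15a, the 1 whose difference was called, while in normal M-CSF most points lie near it.

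Slc38a2, Eif4ebp1 and Atf5 had differences of similar size. Slc38a2 had, in low M-CSF, 67.9, 72.0, 70.7 and 56.8 CPM with LPS in T2KO cells, against 101, 219.7, 111 and 277 CPM without it, whereas WT cells had 141, 190.5, 178 and 247 CPM with LPS, against 104, 178, 98.8 and 174 CPM without it. All T2KO libraries with LPS were below those without it, and the WT ranges overlapped. The difference of log2 fold changes was −1.85 ± 0.33 (adjusted p = 0.000227, and 0.0693 with pairs summed). Without LPS, libraries 1 and 3 were low and 2 and 4 high in both genotypes.

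Eif4ebp1, Iars and Yars were called in opposite directions, lower with LPS in T2KO cells and higher in WT cells, where 0.516% of all genes were. Eif4ebp1 encodes a repressor of cap-dependent translation that mTORC1 inhibits. It averaged 14.6 ± 5.19 CPM with LPS and 35.6 ± 4.69 CPM without it in T2KO cells, and 36.7 ± 8.43 CPM and 24.4 ± 4.98 CPM in WT cells. Its difference was −1.84 ± 0.29 (adjusted p = 4.94e-05), that of Iars, the isoleucine enzyme, −1.42 ± 0.28 (adjusted p = 0.000680) and that of Yars −1.63 ± 0.39 (adjusted p = 0.00484). Each WT rise was lost without at least 1 library, at adjusted p up to 0.0571 for Eif4ebp1 (without WT low M-CSF LPS library 4), 0.533 for Yars (library 4) and 0.0962 for Iars (library 1). By total counts the WT log2 fold changes were −0.17, −0.03 and −0.26 for Eif4ebp1, Yars and Iars, so the opposed directions depended on the scaling.

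Ddit4 and Atf5 also differed. Ddit4 had 0.926, 4.00, 0.768 and 2.91 CPM with LPS in T2KO cells in low M-CSF, against 5.62, 3.63, 6.42 and 4.02 CPM without it, and 0.994, 10.3, 6.06 and 4.71 CPM with LPS in WT cells, against 2.17, 2.18, 0.730 and 1.34 CPM without it. Both pairs of ranges overlapped, and the difference of −2.98 ± 0.84 (adjusted p = 0.0144) was lost without WT low M-CSF LPS library 2 (0.0572). Atf5, a bZIP factor that ATF4 induces, had 19.8, 20.0, 15.6 and 14.6 CPM with LPS in T2KO cells, against 20.8, 16.6, 20.3 and 15.1 CPM without it. In WT cells it had 14.2, 21.5, 14.5 and 22.7 CPM with LPS, against 5.61, 6.53, 4.09 and 4.87 CPM without it, a rise of 1.77 ± 0.22. The difference of −1.82 ± 0.29 (adjusted p = 6.23e-05) came with T2KO cells that were already at the higher level before LPS. Atf4 differed by −0.92 ± 0.28 (adjusted p = 0.0216), with adjusted p of 0.0525 to 0.0651 when any 1 of 3 libraries was left out, the highest without T2KO low M-CSF library 2.

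Between genotypes, low M-CSF without LPS gave 8 members higher and 2 lower in T2KO cells, where 16.7% of all genes were called, 7.74% higher and 8.97% lower. The members' median was 0.31, against 0.07 over all genes. With pairs summed, 5 were called: Atf5, Chac1, Gdf15, Slc7a1 and Asns. Neutrophil marker sums were 197 to 261 CPM in T2KO and 126 to 155 CPM in WT libraries of this comparison. Of the 10 such markers tested, 6 were called higher in T2KO cells. Mean Mmp8 went the other way, at 43.4 CPM in T2KO and 55.8 CPM in WT cells. The part of neutrophils in these differences was not tested.

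Gdf15, a secreted stress cytokine that acts on appetite centres, was higher in T2KO cells in all 4 conditions, where 0.213% of all genes were. In low M-CSF without LPS it had 51.1, 36.2, 53.8 and 38.9 CPM in T2KO cells, against 10.1, 5.25, 13.7 and 12.8 CPM in WT cells, a log2 fold change of 2.11 ± 0.26 (adjusted p = 9.82e-08). In low M-CSF with LPS it had 31.8, 22.7, 32.5 and 28.6 CPM in T2KO cells, against 4.97, 16.9, 18.6 and 17.1 CPM in WT cells (1.03 ± 0.28, adjusted p = 0.00921). The genotypes did not overlap in either comparison. In normal M-CSF without LPS it had 62.1, 83.2, 62.9 and 99.0 CPM in T2KO cells, against 52.7, 29.1, 32.2 and 38.8 CPM in WT cells (1.01 ± 0.24, adjusted p = 0.0149). In normal M-CSF with LPS it had 95.2, 94.9, 105 and 112 CPM in T2KO cells, against 54.7, 50.4, 49.3 and 43.3 CPM in WT cells (1.04 ± 0.24, adjusted p = 0.00766). All T2KO libraries were again above all WT libraries. The call in normal M-CSF without LPS was lost without T2KO library 4 (0.0824), WT library 2 (0.0807) or WT library 3 (0.0703). With libraries summed in pairs, Gdf15 was called only in low M-CSF without LPS.

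Atf5 was higher in T2KO cells in 3 of the 4 conditions. The low M-CSF values without LPS given above were apart, at 1.77 ± 0.20 (adjusted p = 3.38e-08). In normal M-CSF without LPS it had 28.1, 32.5, 29.8 and 30.7 CPM in T2KO cells, against 13.1, 17.0, 18.1 and 20.8 CPM in WT cells, a difference of 0.82 ± 0.19 (adjusted p = 0.00988) that was lost without WT library 1 (0.059). In normal M-CSF with LPS it had 26.4, 27.9, 39.1 and 27.7 CPM in T2KO cells, against 19.9, 18.9, 17.6 and 17.3 CPM in WT cells, a difference of 0.72 ± 0.19 (adjusted p = 0.0222) that was lost without T2KO library 3 (0.153) or WT library 2 (0.0697), 3 (0.0591) or 4 (0.0665). No ranges overlapped in these comparisons. In normal M-CSF without LPS, Atf5 and Gdf15 were the only 2 members called by edgeR, both higher, where 1.86% of all genes were called, 0.747% higher and 1.11% lower. With LPS, Atf5, Gdf15 and Ppp1r15a were called higher, where 4.04% of all genes were called, 1.98% higher and 2.05% lower. With pairs summed 0 members were called in either, and by the main edgeR fit 5 and 10 members had an unadjusted p under 0.05. Ppp1r15a had 0.59 ± 0.16 (adjusted p = 0.0313), lost without any 1 of 6 libraries, with adjusted p up to 0.103 (without T2KO library 1).

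Slc7a1 and Asns were the 2 members lower in T2KO cells in low M-CSF without LPS. Slc7a1 had 3.80, 5.59, 5.04 and 3.04 CPM in T2KO cells, against 11.6, 18.4, 5.84 and 7.22 CPM in WT cells, and the ranges came close without meeting (−1.31 ± 0.26, adjusted p = 0.000340). The Asns values printed above did not overlap (−1.16 ± 0.31, adjusted p = 0.00840). Atf4 itself was higher in T2KO cells, with every T2KO library above every WT library (0.93 ± 0.20, adjusted p = 0.000724), as was Slc3a2 (0.89 ± 0.18, adjusted p = 0.000345). Chac1 was at least 4.74-fold and Slc1a4 at least 2.76-fold higher in mean in T2KO cells, from 22 and 16 counts over 4 libraries. These bounds leave out the error of the T2KO means, and 10 of the 16 Slc1a4 counts were in T2KO library 2. The Slc1a4 call was lost in 5 of 8 leave-one-out fits, with adjusted p up to 0.121 (without T2KO library 2), that of Ddit4 (1.58 ± 0.55) in 6, up to 0.119 (without WT library 3), and that of Eif4ebp1 (0.54 ± 0.19) in 6, up to 0.184 (without WT library 2).

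With LPS in low M-CSF the direction was mostly the other one. Of 33 members 9 were lower and 2 higher in T2KO cells, where 19.1% of all genes were called, 10.9% lower and 8.20% higher, with a median of −0.42 against −0.05 over all genes. With pairs summed 4 were called: Ppp1r15a, Eif4ebp1, Slc38a2 and Iars. The 9 lower members were 5 tRNA synthetases (Sars, Mars, Yars, Iars and Cars), the transporters Slc38a2 and Slc7a1, Aldh18a1 and Eif4ebp1. Neutrophil marker sums were 285 to 437 CPM in T2KO and 216 to 236 CPM in WT libraries here, and their part was not tested. Means of the markers Mmp9, Camp and Elane went the other way.

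Ppp1r15a, at 533, 512, 433 and 413 CPM in T2KO cells, against 275, 171, 283 and 157 CPM in WT cells, was higher by 1.09 ± 0.16 (adjusted p = 1.01e-05), and Slc38a2 was lower by a log2 fold change of −1.49 ± 0.24 (adjusted p = 2.43e-05). Neither gene's genotype groups overlapped. Sars had 39.8, 54.3, 27.4 and 42.2 CPM in T2KO cells, against 85.8, 88.9, 66.2 and 84.3 CPM in WT cells, again without overlap (−1.0 ± 0.24, adjusted p = 0.00285). Iars was at −1.42 ± 0.21 (adjusted p = 8.91e-06) and Aldh18a1, whose values are given above, at −1.64 ± 0.43 (adjusted p = 0.00621). Slc7a1 had 22.9, 28.0, 23.3 and 14.6 CPM in T2KO cells, against 36.1, 41.7, 38.4 and 38.1 CPM in WT cells. Its ranges were apart, but the call (−0.78 ± 0.25, adjusted p = 0.0260) was lost in 4 of 8 leave-one-out fits, up to 0.0865 (without T2KO library 4). The call of Mars was lost without T2KO library 4 (0.0527) or WT library 2 (0.0662) or 4 (0.0598), and that of Yars without T2KO library 1 (0.0673) or WT library 4 (0.224). Atf4 was at 0.01 ± 0.19 in this comparison (adjusted p = 0.983) while these targets were lower.

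The effect of the medium differed between the genotypes for few members. Without LPS, Slc7a1 (−1.29 ± 0.35, adjusted p = 0.0208) and Asns (−1.40 ± 0.40, adjusted p = 0.0348) fell further in T2KO cells and Atf5 (0.95 ± 0.27, adjusted p = 0.0348) fell less, where 4.62% of all genes were called, 3.21% lower and 1.41% higher. Each of these 3 was lost without at least 1 library: Slc7a1 in 2 fits, up to 0.134 (without WT low M-CSF library 2), Asns in 9, up to 0.101 (without WT low M-CSF library 4), and Atf5 in 9, up to 0.0843 (without WT low M-CSF library 3). With LPS, Eif4ebp1 (−1.67 ± 0.29), Iars (−1.39 ± 0.27) and Cars (−1.08 ± 0.30) fell further in T2KO cells. Slc38a2 (−1.63 ± 0.33) fell there and, by TMM, rose in WT cells. Of all genes, 5.49% were called in this test, 3.29% lower and 2.20% higher. The call of Cars, the cysteine enzyme, was lost in 7 fits, up to 0.0785 (without WT low M-CSF LPS library 2). With pairs summed, edgeR called 0 members in either comparison, and DESeq2 called 4 and 7, while 8 and 15 members had an unadjusted p under 0.05 in edgeR.

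The LPS response of some members also depended on the medium within each genotype. In WT cells 11 of 33 members responded more positively in low medium and 2 more negatively, where 23.6% of all genes were called, 10.7% and 12.8%. In T2KO cells the counts were 5 and 7, where 35.3% of all genes were called, 13.3% and 22.0%. The share of members called in T2KO cells was thus near that of all genes. The members' median difference was 0.42 in WT and −0.22 in T2KO cells, against −0.14 and −0.28 over all genes. Total-count scaling turned the counts of calls into 8 and 3 in WT cells and 2 and 14 in T2KO cells, with all-gene medians of −0.47 and −0.70, and RLE gave 6 and 5 in T2KO cells. Summed pairs gave 7 calls in WT and 6 in T2KO cells. Transporters made up 5 of the 11 in WT cells. Of these, Slc3a2 was lost in 11 of 16 leave-one-out fits (adjusted p up to 0.0983, without WT low M-CSF library 2) and Slc7a5 in 6 (up to 0.0972, without WT low M-CSF LPS library 2), and Slc1a4 had no counts in WT cells in low M-CSF without LPS. Slc7a1 differed by 1.32 ± 0.34 and Slc38a2 by 1.67 ± 0.32 (adjusted p = 0.00409 and 0.000221). In T2KO cells Slc7a1 was the 1 transporter called (1.71 ± 0.35, adjusted p = 0.000273).

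Genes of the same pathways outside the 35 showed which neighbours moved alongside. Of 19 other ATF4 targets tested, 8 fell and 2 rose in low M-CSF without LPS in T2KO cells and 10 fell and 2 rose in WT cells, beside the 48.2% and 44.3% of all genes called. Among cells with LPS, where 59.2% and 45.6% of all genes were called, 14 fell and 1 rose in T2KO cells and 9 fell and 2 rose in WT cells. Phgdh, which starts serine synthesis, was among the 2 largest changes in all 4 comparisons, at −4.23, −3.75, −5.48 and −2.97 on the log2 scale in that order. The 8 cytosolic tRNA synthetases outside the members had 7 and 6 lower without LPS in T2KO and WT cells, and 6 and 3 lower with LPS. The 17 mitochondrial synthetases had 3 lower and 2 higher without LPS in each genotype, and 11 lower with LPS in T2KO cells and 5 in WT cells. ER chaperones and XBP1 targets, the arm of protein folding stress, had 10 of 15 lower in T2KO and 6 of 15 in WT cells in low M-CSF without LPS, led by Sdf2l1 and Manf in both.

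With LPS in low M-CSF, where 67.5% of all genes were called in T2KO cells and 60.7% in WT cells, 12 of 15 ER chaperones and XBP1 targets were higher and 2 lower in T2KO cells, and 8 were higher and 0 lower in WT cells. Hspa5, the main ER chaperone BiP, rose by 1.66 in T2KO and 2.37 in WT cells on the log2 scale. Mitochondrial synthetases had 12 of 17 lower in T2KO and 10 in WT cells. Of the other ATF4 targets 4 rose and 8 fell in T2KO cells and 6 rose and 7 fell in WT cells, shares near those of all genes, and Slc7a11, the cystine importer, had the largest change in both, at 7.73 and 6.88. Among eIF2 kinases and regulators 5 rose and 4 fell in T2KO cells and 5 rose and 5 fell in WT cells, including Eif2ak2, the RNA-sensing kinase PKR, at 3.96 and 3.27. Between genotypes in low M-CSF, where 16.7% of all genes were called without LPS and 19.1% with it, the other ATF4 targets had 5 higher and 3 lower in T2KO cells without LPS, and 6 lower with LPS, among them Phgdh (−1.86) and Psat1 (−1.14).

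Across the 32 libraries, members were set against Asns and Atf4. Pearson correlations of log2(CPM + 1) with Asns were highest for Gars (0.94), Aars (0.91), Slc7a5 (0.90), Yars (0.89) and Iars (0.89). With Atf4 mRNA they were highest for Wars (0.82), Atf5 (0.70) and Nupr1 (0.70), and the value between Atf4 and Asns was 0.43. Vldlr had −0.69 with Asns and −0.63 with Atf4. Ddit3 (−0.09 with Asns and −0.25 with Atf4), Ddit4 (−0.35 and −0.01), Nars (−0.01 and −0.46), Sesn2 (−0.01 and −0.57) and Slc38a2 (0.36 and 0.02) had low or negative values with both. These values describe the libraries only, which share the 8 groups, so medium and LPS enter every one of them.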

How the data were processed

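The authors deposited raw read counts per gene for 32 libraries, not normalized. STAR, HTSeq, DESeq2 and mm10 are named, without versions, per the submitters' processing notes. Per the labels' protocols, mRNA was caught on oligo-dT beads, primed with barcoded oligo-dT and amplified for 12 cycles into strand-specific libraries. No molecular identifiers are mentioned, so floors cover counting error only. Identifiers were matched to symbols for 23969 of 24885 (96.3%, holding 99.5% of counts), and Mars was matched as Mars1.

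Counts were fitted with edgeR 4.0.16 (R 4.3.3, limma 3.58.1): TMM, filterByExpr at its defaults (11244 genes kept), 1 fit with a mean per group, two-sided quasi-likelihood F tests and Benjamini-Hochberg adjustment over all genes. The SE is the log2 fold change divided by the root of F. The method was tested on simulated data with few genes changed, as many up as down, in 1 group. Such data do not bear on the choice of scaling where most genes are called. Alternatives were RLE, no filter, DESeq2 1.42.0, only the groups compared, a replicate block, libraries summed in pairs (1 with 3, 2 with 4) and each library left out. Total-count scaling was added after seeing the data.

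Members and lists were chosen with earlier results of these data known. Library values are given for Atf4 and, in each of the 12 comparisons of 2 groups, for the 2 members with the largest called rise and the 2 with the largest called fall; outside the members, the 2 largest called changes of each list may be named. Same-numbered libraries did not deviate together, with correlations down to −0.38 and medians from −0.04 to 0.05, so no pairing was assumed.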

Additional observations from a re-analysis of the deposited data

Results flagged for a closer look

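In 262 sets of 4 libraries (each member in each group), 11 had a highest or lowest library apart from the other 3 by more than Dixon's critical value. That is 4.20%, near the 1 in 20 that chance gives. With LPS in normal M-CSF, T2KO cells had single high libraries of Atf5 (39.1 CPM, others 26.4 to 27.9), Ddit4 (5.68 CPM, others 1.16 to 1.73) and Aldh18a1 (26.7 CPM, others 19.9 to 20.5), and a single low one of Slc1a4 (2.11 CPM, others 3.06 to 3.21). WT cells there had a low library of Ddit4 (0.953 CPM, others 2.12 to 2.31) and a high one of Wars (63.1 CPM, others 54.8 to 55.7). With LPS in low M-CSF, Slc1a4 had 0.512 CPM in 1 T2KO library and Trib3 0.856 CPM in 1 WT library, with the others at 0, and Gdf15 was low in 1 WT library (4.97 CPM, others 16.9 to 18.6). Without LPS, Slc1a5 was low in 1 T2KO library in low M-CSF (5.38 CPM, others 10.1 to 11.0) and Aldh18a1 in 1 WT library in normal M-CSF (24.6 CPM, others 30.4 to 31.0).

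Differences between groups in the same contrast were called 49 times, each a difference of 2 log2 fold changes tested with edgeR. For the medium without LPS, T2KO minus WT, they were Atf5 0.95, Slc7a1 −1.29 and Asns −1.40. With LPS they were Eif4ebp1 −1.67, Slc38a2 −1.63, Iars −1.39 and Cars −1.08. For LPS in low M-CSF, T2KO minus WT, the transcription factors and effectors were Atf4 −0.92, Atf5 −1.82, Ppp1r15a 0.83, Ddit4 −2.98, Eif4ebp1 −1.84 and Gdf15 −1.08, the last lost in 11 of 16 leave-one-out fits. The transporters and Aldh18a1 were Slc3a2 −1.01, Slc38a2 −1.85 and Aldh18a1 −1.58, and the synthetases were Aars −1.04, Sars −1.41, Mars −1.35, Yars −1.63, Iars −1.42 and Cars −1.39. Fitted values for Chac1 (−6.07) and Slc1a4 (−6.27) depend on the prior count, since WT cells without LPS had no counts, and are no bounds.

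For LPS in T2KO cells, low minus normal M-CSF, the higher ones were Atf4 0.69, Nupr1 3.90, Ppp1r15a 0.86, Slc7a1 1.71 and Wars 0.77. The lower ones were Sesn2 −2.84, Eif4ebp1 −1.27, Gdf15 −1.04, Vldlr −3.20, Nars −0.87, Yars −0.98 and Iars −1.18. For LPS in WT cells, low minus normal M-CSF, the higher ones were Atf4 1.73, Atf5 1.67, Nupr1 3.40, Slc3a2 0.70, Slc7a5 1.71, Slc7a1 1.32, Slc38a2 1.67, Wars 0.98 and Cars 1.12, and the lower ones Sesn2 −2.44 and Nars −1.42. The fitted values of Chac1 (5.70) and Slc1a4 (6.11) are again no bounds.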

How the results depend on the processing

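Of 244 called differences among the members, 235 kept direction and threshold with DESeq2, 229 with RLE factors, 234 without the filter, 158 with libraries summed in pairs, 213 of 234 with only the groups compared, and 214 with total-count scaling. Total counts turned 5 values to the other sign: with LPS, Tars in T2KO cells in low M-CSF (−0.12), Gars in T2KO cells in normal M-CSF (−0.01), and Eif4ebp1 (−0.17), Yars (−0.03) and Iars (−0.26) in WT cells in low M-CSF. Leaving out single libraries kept 2105 of 2344 calls, and 57 of the 244 were lost without at least 1 library.

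In pairs of summed libraries, member counts fell to 6 for LPS in T2KO cells and 6 in WT cells in normal M-CSF, 15 for the medium in WT cells with LPS, 5 for genotype in low M-CSF without LPS and 4 with LPS, and 0 for genotype in normal M-CSF in either setting. They were 0 for genotype by M-CSF in either setting, 2 for genotype by LPS in low M-CSF, and 6 in T2KO and 7 in WT cells for M-CSF by LPS. With only the groups compared, the counts were 17 for LPS in T2KO cells in normal M-CSF, 3 and 7 for genotype in normal M-CSF without and with LPS, 6 for genotype in low M-CSF with LPS, 2 for genotype by M-CSF without LPS and 8 for genotype by LPS in low M-CSF. DESeq2 gave 7 for genotype by M-CSF with LPS, and total-count scaling gave 1 for genotype in normal M-CSF with LPS, 2 for genotype by M-CSF without LPS and 16 for LPS in T2KO cells in normal M-CSF. The causes were not tested.

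Leaving out 1 library at a time gave 19 to 23 calls for LPS in T2KO and 18 to 20 in WT cells in low M-CSF, and 8 to 11 and 7 to 9 in normal M-CSF. For the medium it gave 27 to 28 in T2KO and 26 to 28 in WT cells without LPS, and 23 to 25 and 20 to 24 with LPS. For genotype it gave 7 to 9 and 9 to 14 in low M-CSF without and with LPS, and 1 to 2 and 1 to 3 in normal M-CSF. For the interactions it gave 1 to 4 and 3 to 6 (genotype by M-CSF, without and with LPS), 14 to 17 and 0 (genotype by LPS, low and normal M-CSF), and 9 to 13 in T2KO and 10 to 14 in WT cells (M-CSF by LPS).

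With the replicate block, the counts in that order were 22, 21, 11, 10, 28, 29, 25, 25, 9, 11, 2, 3, 3, 4, 17, 0, 12 and 13. Of the 32 libraries, 12 correlated best with their own number. In the shallowest library, at 3068863 counts, a count of 0 allows a level of up to 1.46 CPM on the TMM scale.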
